A study of Homo sapiens with 6 samples.

Results

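Nuclear pore and nuclear transport genes were followed after silencing of SDC1 in MDA-MB-231 cells, a long-established line from a human triple-negative breast cancer. A list of 41 genes was used, 24 nucleoporins and 17 import receptors, export receptors and Ran cycle genes. All 41 were measured by at least 1 probe set tied to a single gene, 131 of the 41091 such probe sets and 41 of the 19775 genes. Of the 41 genes, 5 had 1 probe set and TNPO1 had the most, with 10. The genes were listed by name and function, and NUP58 was on the list with its opposing probe sets already known. Its own values are therefore given as a description with no test, and the main totals are also given without it. Counts of probe sets or pairs with an array left out, within a batch or under another setting include NUP58.

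The study compared 3 cultures given a small interfering RNA (siRNA) against SDC1, the gene of the cell surface proteoglycan syndecan-1, with 3 given a negative control siRNA. Both groups are the same line, transfected and grown alike as far as the labels say, and no untransfected cells are among the samples. The series design calls the replicates independent, and p-values set the difference between groups against the spread among the 3 arrays of each group. The siRNA sequence, its dose and the time after transfection are stated nowhere in the sources used here, and a second siRNA against SDC1 was not analysed here.

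The nuclear pore complex is a ring-shaped channel through the nuclear envelope, built from scaffold rings, membrane anchors, nucleoporins rich in phenylalanine-glycine (FG) repeats that fill the channel, and filaments on the cytoplasmic and nuclear faces. Importins carry cargo inward and exportins outward, and the small GTPase Ran gives the direction: RCC1 loads it with GTP in the nucleus, and RANGAP1 with RANBP1 and RANBP2 drives GTP hydrolysis on the cytoplasmic side. In dividing cells the pore is taken apart and rebuilt at each mitosis, and several of its parts act at kinetochores and on the spindle.

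Values are log2 signals from which each probe set's own median, taken across the 6 arrays, has been subtracted, so differences between groups can be read from them but levels cannot. A probe set is a group of short probes read as 1 value. The numeric step of the deposited values places each probe set in a coarse brightness class. The log2 level is 8 to 16 in the brightest class, 4 to 8 in the middle and 2 to 4 or lower in the dimmest. The class was read from the 3 arrays where the probe set was highest, so it can rest on 1 group alone. A gene value is the mean of a gene's probe sets in its brightest class. Of the 41 genes, 40 had a probe set in the brightest class and NUP42 did not. Fold changes are SDC1 siRNA minus control siRNA on the log2 scale with the standard error (SE) of limma, n = 3 a group, and a gene or probe set passed the test at a Benjamini-Hochberg adjusted p below 0.05 over all genes or all probe sets.

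SDC1 was 1.13, 1.32 and 1.09 in the control arrays and -1.14, -1.16 and -1.43 in the SDC1 siRNA arrays, so SDC1 was down to 18.7% of control (log2 difference -2.42, SE 0.097, adjusted p = 2.18e-06). The change in the transport genes was smaller and went both ways. Poly-A spike-in controls split the arrays into a batch A (control 1, SDC1 siRNA 1 and 2; mean 0.354 to 0.602) and a batch B (control 2 and 3, SDC1 siRNA 3; mean -0.414 to -0.378), which the labels do not name. Of the cell line markers VIM, CD44, EGFR, KRT18, KRT8 and CAV1, all 6 lay in the brightest class, where 40.7% of all genes passed. VIM (-0.62), CD44 (-0.68) and EGFR (-0.41) fell, and KRT18 (-0.21), KRT8 (-0.07) and CAV1 (0.04) did not pass. Markers of other cell types were in that class for 5 of the 13 measured. Of the 13, 3 fell, COL1A1 (-0.77), CD14 (-0.46) and ACTA2 (-0.27), and the others did not pass. Of all genes 28.1% passed. Their summed level cannot be read from centred values, and their part in the results was not tested.

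Of the 41 genes, 11 rose and 5 fell, 39.0% in all, and without NUP58 the share was 40.0% of 40. With the brightness class set from all 6 arrays, 10 rose and 5 fell. The background was 28.1% of all 19775 genes (13.0% higher and 15.1% lower) and 40.7% of the 9574 genes in the brightest class. Since 40 of the 41 lie in that class, the share that moved was close to that of other bright genes. The median log2 fold change was -0.03, against 0.0044 over all genes, and the median size without sign was 0.15, against 0.13 over all genes and 0.17 in the brightest class. The 3 control arrays and the 3 SDC1 siRNA arrays did not overlap for 23 genes (56.1%), against 41.7% of all genes and 57.1% of those in the brightest class. Fold changes ran from -0.69 (NUP62) to 0.69 (NUP43), and these were the only 2 genes past 0.5 in size, whereas 9.56% of all genes passed the test with a size of 0.5 or more. Genes that rose numbered 7 without control 2.

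**Figure D1:**
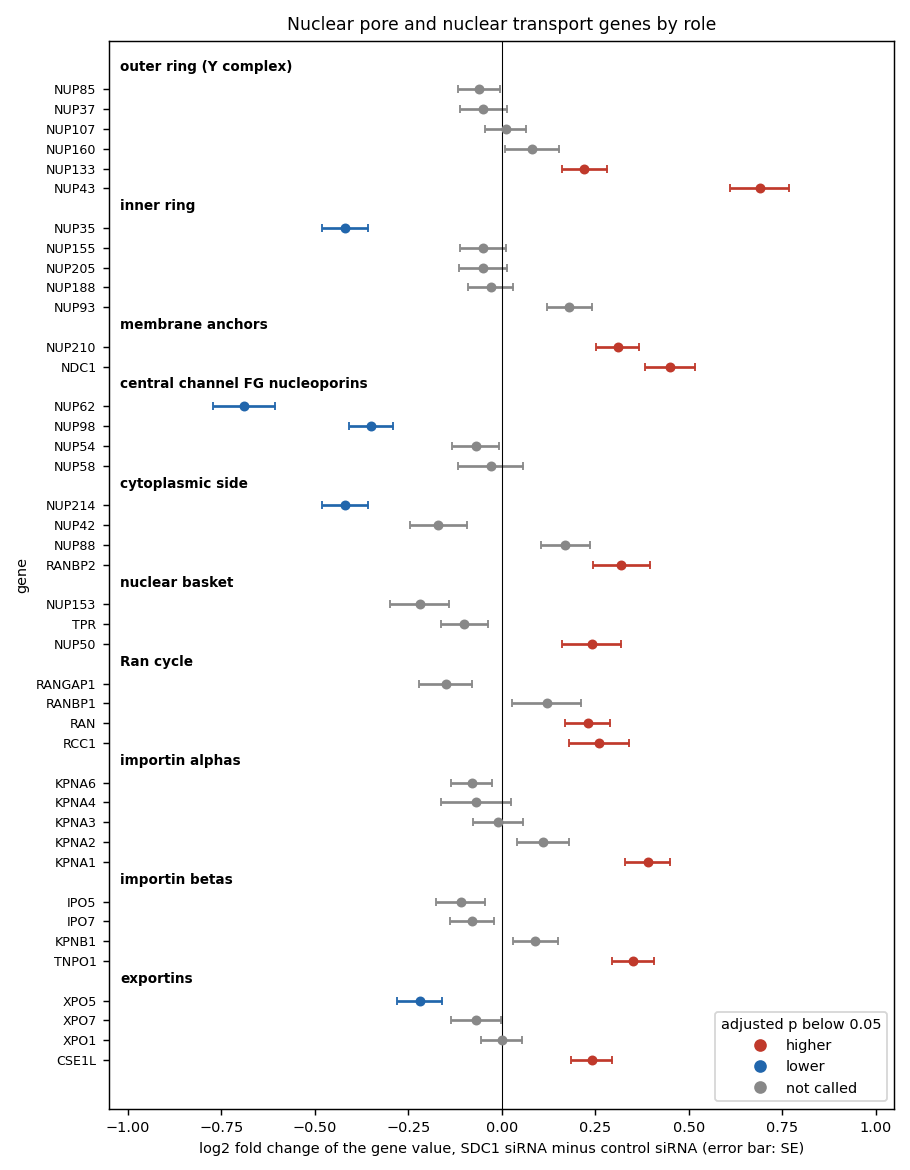
Log2 fold change of each of the 41 gene values (horizontal axis, SDC1 siRNA minus control siRNA, error bars SE, n = 3 arrays a group), grouped by role, with genes past an adjusted p of 0.05 in red (higher) or blue (lower). NUP43 at 0.69 and NUP62 at -0.69 lie at the ends, and most genes lie within 0.25 of 0.

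Among the scaffold rings the outer ring, or Y complex, held 2 risers of 6 genes and the inner ring 1 faller of 5. In the brightest class 40.7% of all genes passed, and no role described here or below has more than 6 genes. Counts within a role are too small to be set apart from that share. NUP43, a beta-propeller subunit of the outer ring, was -0.30, -0.24 and -0.45 in the control arrays and 0.24, 0.41 and 0.42 in the SDC1 siRNA arrays. The groups are far apart, with all 3 control arrays low and all 3 silenced arrays high. NUP43 rose by 0.69 (SE 0.079, adjusted p = 0.000317) to 161% of control. Its dimmer probe set, 238474_at, changed by 0.35 and did not pass (adjusted p = 0.0928).

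NUP133, another outer ring subunit, rose by 0.22 (SE 0.060, adjusted p = 0.0249 over genes, and 0.0597 for its bright probe set over all probe sets), a small rise that did not pass without control 2 (adjusted p = 0.0855), SDC1 siRNA 1 (0.0869) or SDC1 siRNA 3 (0.0632). The other 4 outer ring genes, NUP37, NUP85, NUP107 and NUP160, had log2 fold changes between -0.06 and 0.08 and none passed. In the inner ring NUP35, which binds membrane, was 0.31, 0.19 and 0.18 in the control arrays and -0.18, -0.20 and -0.20 after SDC1 siRNA. NUP35 fell by 0.42 (SE 0.061, adjusted p = 0.00104), with no overlap of groups, and its 4 partners NUP93 (0.18, adjusted p = 0.0592), NUP155 (-0.05), NUP188 (-0.03) and NUP205 (-0.05) did not pass.

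Both membrane anchors on the list had a gene value that rose. NUP210, a transmembrane glycoprotein of the pore, was -0.16, -0.13 and -0.20 in the control arrays and 0.19, 0.15 and 0.12 after SDC1 siRNA. It rose by 0.31 (SE 0.057, adjusted p = 0.00343), and all 5 of its probe sets had a positive fold change, from 0.26 to 0.36, of which 3 passed. Of these, 213947_s_at did not pass without SDC1 siRNA 1 (adjusted p = 0.0555), and 212316_at passed only without control 2 when 1 array was left out, reaching 0.0763 without SDC1 siRNA 2. The third, 212315_s_at, did not pass without control 1 (0.0603), control 3 (0.0693), SDC1 siRNA 1 (0.0647) or SDC1 siRNA 2 (0.0751). NDC1, which ties the rings to the membrane, rose by 0.45 (SE 0.067, adjusted p = 0.00116), but its 2 probe sets moved apart and are described further on.

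The nucleoporins of the central channel held 2 fallers of 4. NUP62 forms the channel complex with NUP54 and NUP58 and was 0.38, 0.56 and 0.25 in the control arrays and -0.34, -0.28 and -0.26 in the silenced arrays. NUP62 fell by 0.69 (SE 0.083, adjusted p = 0.000405) to 62.0% of control, with control 2 the highest and no overlap between groups. Its bright probe sets 202153_s_at and 207740_s_at fell by 0.68 and 0.70, while the dimmer 236505_at changed by -0.12 and did not pass (adjusted p = 0.410). NUP54 did not pass, at -0.07 (adjusted p = 0.490). NUP98, whose precursor is cut into NUP98 and the outer ring protein NUP96, was 0.15, 0.25 and 0.16 in the control arrays and -0.20, -0.14 and -0.16 after SDC1 siRNA, and fell by 0.35 (SE 0.059, adjusted p = 0.00246).

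On the cytoplasmic face NUP214, which anchors messenger RNA export factors, was 0.17, 0.30 and 0.18 in the control arrays and -0.22, -0.23 and -0.17 in the silenced arrays. Its gene value fell by 0.42 (SE 0.062, adjusted p = 0.00112), though it turned to 0.05 when dimmer probe sets were averaged in. RANBP2, a large SUMO ligase and Ran-binding nucleoporin, rose by 0.32 (SE 0.075, adjusted p = 0.0132). That value depended on which of its probe sets were counted. It was -0.14 when the brightness class was set from all 6 arrays and not from the 3 highest. For 226922_at and 201712_s_at, which rose, the 3 highest arrays are the SDC1 siRNA arrays, so their class rests on that group. The choice of probe sets thus favours a rise, and the p-value of this gene value is not independent of that choice. With its _x_at probe set kept it was 0.16 (adjusted p = 0.140). RANBP2 has near-identical RGPD copies in the genome, and 1 further probe set tied to RANBP2 with 7 RGPD genes was left out, so the value is uncertain. NUP88 (0.17, adjusted p = 0.0885) and NUP42 (-0.17, adjusted p = 0.150) did not pass.

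In the nuclear basket NUP50, a cofactor of importin alpha, rose by 0.24 (SE 0.078, adjusted p = 0.0484), just within the threshold, and none of its 6 probe sets rose past the threshold among all probe sets. The rise did not pass without control 1 (adjusted p = 0.124), control 2 (0.111), control 3 (0.0744), SDC1 siRNA 2 (0.0747) or SDC1 siRNA 3 (0.110), and the value was -0.03 when dimmer probe sets were averaged in. The dim NUP50 probe set 222583_s_at fell by 0.36 (adjusted p = 0.0264), a call lost without control 2 (0.0827), control 3 (0.0744), SDC1 siRNA 1 (0.0962) or SDC1 siRNA 2 (0.0953). NUP153, which recruits importin beta to the basket, changed by -0.22 (adjusted p = 0.0774), and without SDC1 siRNA 3 by -0.30 (adjusted p = 0.0165). TPR, the main fibre of the basket, changed by -0.10 (adjusted p = 0.290).

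Of the 4 Ran cycle genes, 2 rose, where 40.7% of all genes in the brightest class passed. RAN was -0.10, -0.17 and -0.13 in the control arrays and 0.09, 0.04 and 0.15 in the silenced arrays, a rise of 0.23 (SE 0.060, adjusted p = 0.0226). That rise did not pass without control 2 (adjusted p = 0.0754), control 3 (0.0544), SDC1 siRNA 1 (0.0662) or SDC1 siRNA 3 (0.0656). RCC1, the nucleotide exchange factor of Ran, rose by 0.26 (SE 0.080, adjusted p = 0.0391), and did not pass in a fit blocked on spike-in batch (0.0699) or without control 1 (0.0516), control 2 (0.0560), control 3 (0.114), SDC1 siRNA 1 (0.118) or SDC1 siRNA 2 (0.125). RANBP1 (0.12, adjusted p = 0.397) and RANGAP1 (-0.15, adjusted p = 0.159) did not pass.

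Among the 5 importin alphas on the list, which bind the classical nuclear localisation signal, KPNA1 alone passed. It was -0.18, -0.18 and -0.27 in the control arrays and 0.19, 0.21 and 0.13 after SDC1 siRNA, and rose by 0.39 (SE 0.060, adjusted p = 0.00164) to 131% of control. All 6 KPNA1 probe sets had positive fold changes, from 0.30 to 0.50, and 5 of them passed, so this rise is spread over the probe sets. Of the 5, 202057_at did not pass without control 3 (adjusted p = 0.0587), SDC1 siRNA 1 (0.0654) or SDC1 siRNA 2 (0.0738), and 202058_s_at passed without control 3 but in no other fit with 1 array left out (0.0623 to 0.0708). KPNA2 (0.11), KPNA3 (-0.01), KPNA4 (-0.07) and KPNA6 (-0.08) did not pass. KPNA5, an importin alpha outside the list, fell by 1.86 and is described further on. KPNB1, the importin beta that carries the alphas, changed by 0.09 (adjusted p = 0.340), with 5 probe sets between -0.02 and 0.18 in its gene value and none past the threshold.

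TNPO1, the receptor of RNA-binding proteins such as HNRNPA1, rose by 0.35 (SE 0.056, adjusted p = 0.00196), from -0.15, -0.16 and -0.22 in the control arrays to 0.19, 0.19 and 0.14 in the silenced arrays. IPO5 (-0.11) and IPO7 (-0.08), importins of ribosomal proteins and histones, did not pass. Of the 4 exportins on the list, CSE1L, which returns importin alpha to the cytoplasm, rose by 0.24 (SE 0.054, adjusted p = 0.0110). XPOT, an exportin outside the list, fell by 1.81 and is described further on. XPO5, the exporter of precursor microRNAs, fell by 0.22 (SE 0.060, adjusted p = 0.0248), a call lost without control 2 (0.0743), control 3 (0.0736), SDC1 siRNA 1 (0.0924) or SDC1 siRNA 2 (0.0689). XPO1, the main exporter of proteins with a leucine-rich signal, was at 99.9% of control with arrays between -0.03 and 0.03 (SE 0.055, adjusted p = 0.994), and XPO7 changed by -0.07 (adjusted p = 0.488).

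**Figure D2:**
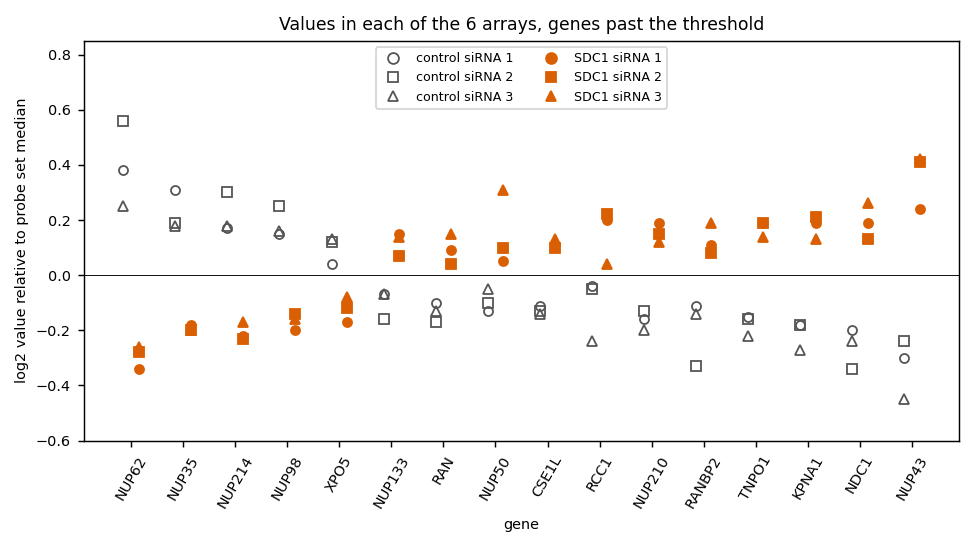
Gene values in each of the 6 arrays for the 16 genes past the threshold (vertical axis, log2 relative to the probe set median; open grey symbols control siRNA, filled orange SDC1 siRNA, shape marks the replicate number). In all 16 the 3 arrays of a group lie on 1 side of the 3 arrays of the other, from NUP62 at a fold change of -0.69 to NUP43 at 0.69.

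At the level of single probe sets, 20 rose and 13 fell of the 127 outside NUP58, 26.0% against a background of 19.8% of all 54613 probe sets (9.70% higher and 10.1% lower). For 61 of the 127 (48.0%) no control array overlapped a silenced one, against 35.7% of all probe sets. In the brightest class, 25 of 85 passed (29.4%), against 33.6% of all its probe sets, and 47 of 85 did not overlap (55.3%), against 55.3%. The share of probe sets that moved was thus no higher than among all bright probe sets. Past 0.5 in size were 12 of the 127, and NDC1 234672_s_at alone was past 1. With the 4 probe sets of NUP58 included, 22 of 131 rose and 14 fell (27.5%). When each array was left out in turn, 20 of these 36, NUP58 included, passed every time and 16 did not in at least 1 fit. Of the 16 genes, 11 passed every time. With NUP58 included, probe sets that rose numbered 14 without SDC1 siRNA 1. Those that fell numbered 8 without control 2, SDC1 siRNA 1 or SDC1 siRNA 2 and 9 without control 3.

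The probe sets of a gene did not always move together. In NUP58 the probe set 204435_at was 0.60, 0.56 and 0.61 in the control arrays and -0.56, -0.58 and -0.58 after SDC1 siRNA, a difference of -1.16 (SE 0.066) that left 44.6% of control. The second, 223984_s_at, was -0.28, -0.29 and -0.23 in the control arrays and 0.23, 0.33 and 0.73 after SDC1 siRNA, a difference of 0.70 (SE 0.12). Here SDC1 siRNA 3 is the highest. The third, 225047_at, was -0.16, -0.24 and -0.04 against 0.17, 0.04 and 0.51, a difference of 0.39 (SE 0.12). The dimmer 241425_at was -0.08, -0.40 and -0.18 against 0.41, 0.34 and 0.08, a difference of 0.50 (SE 0.11). All 4 probe sets had groups that did not overlap, 1 low after silencing and 3 high, and the gene value, a mean of 3 of them, was -0.03 (SE 0.087). The distance from 204435_at to the others was 1.86, 1.55 and 1.66. In batch A and in batch B the difference was -1.17 and -1.16 for 204435_at, and 0.56 and 0.99 for 223984_s_at.

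TNPO1 had 10 probe sets, of which 2 rose, 1 fell and 7 did not pass. The probe set 225765_at was -0.42, -0.48 and -0.43 in the control arrays and 0.42, 0.48 and 0.55 in the silenced arrays, a rise of 0.93 (SE 0.071, adjusted p = 5.99e-05). A second, 225766_s_at, was -0.58, -0.47 and -0.35 against 0.40, 0.35 and 0.53, a rise of 0.89 (SE 0.087, adjusted p = 0.000210). In contrast 212635_at was 0.25, 0.15 and 0.31 in the control arrays and -0.26, -0.24 and -0.15 in the silenced arrays, and fell by 0.45 (SE 0.075, adjusted p = 0.00336). It differed from 225765_at by 1.38 (SE 0.097, adjusted p = 9.34e-05 over all pairs of probe sets). The other 7 lay between 0.03 and 0.32.

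NDC1 showed the largest rise of the 131 probe sets. Its 234672_s_at was -0.54, -0.71 and -0.63 in the control arrays and 0.57, 0.55 and 0.54 after SDC1 siRNA, a rise of 1.18 (SE 0.073, adjusted p = 2.32e-05) to 227% of control. Its other probe set, 218073_s_at, was 0.15, 0.02 and 0.15 in the control arrays and -0.20, -0.28 and -0.02 after SDC1 siRNA, a change of -0.27 (adjusted p = 0.0614) that did not pass. The difference between the pair was 1.46 (SE 0.11, adjusted p = 0.000109). The rise of the NDC1 gene value is therefore the mean of a large rise and a small change the other way.

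In RAN the probe set 200749_at was -0.23, -0.39 and -0.31 in the control arrays and 0.36, 0.23 and 0.34 in the silenced arrays, a rise of 0.62 (SE 0.076, adjusted p = 0.000651). The other, 200750_s_at, changed by -0.17 (adjusted p = 0.144), and the pair differed by 0.79 (SE 0.10, adjusted p = 0.00132). NUP214 had 202155_s_at, which carries the fall of 0.42, and a dimmer probe set, 228902_at, that was -0.11, -0.22 and -0.21 against 0.11, 0.11 and 0.42 and rose by 0.40 (adjusted p = 0.0219). The latter call was lost without control 2 (0.0653) or control 3 (0.0669), and the pair differed by 0.82 (SE 0.12, adjusted p = 0.00207).

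NUP98 had 203194_s_at at 0.29, 0.46 and 0.37 in the control arrays and -0.39, -0.32 and -0.29 in the silenced arrays, a fall of 0.70 (SE 0.076, adjusted p = 0.000337). Its 203195_s_at was 0.28, 0.38 and 0.16 against -0.35, -0.16 and -0.32, a fall of 0.55 (adjusted p = 0.00247), whereas 210793_s_at changed by 0.21 (adjusted p = 0.0667), a distance of 0.91 from the first (SE 0.10, adjusted p = 0.000625). RANBP2 had 226922_at and 201712_s_at, which rose by 0.57 and 0.53, beside 201713_s_at at -0.14 and 201711_x_at at -0.32, neither of which passed (adjusted p = 0.305 and 0.0505). In CSE1L 201111_at alone rose, from -0.29, -0.26 and -0.31 to 0.31, 0.26 and 0.30, by 0.58 (SE 0.066, adjusted p = 0.000451), and the other 3 changed by 0.06 to 0.11 and did not pass. The fold change of each of these genes thus depends on the probe set taken.

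Apart from NUP58, 5 genes whose gene value did not pass held a probe set that did. In NUP153, 1559064_at was 0.18, 0.29 and 0.06 in the control arrays and -0.43, -0.35 and -0.06 after SDC1 siRNA, and fell by 0.46 (SE 0.11, adjusted p = 0.0204). It did not pass without control 1 (0.0516), control 2 (0.0675), SDC1 siRNA 1 (0.0749) or SDC1 siRNA 2 (0.0732). The dim XPO1 probe set 235927_at rose by 0.49 (adjusted p = 0.0367), with control 2 the lowest at -0.66, and passed without control 1 but in no other fit with 1 array left out (0.0520 to 0.112). The dim KPNA4 probe set 213567_at rose by 0.35 (adjusted p = 0.0467), and passed without control 1 but in no other such fit (0.0914 to 0.136). In IPO5, 211952_at fell by 0.27 (adjusted p = 0.0453), and passed without SDC1 siRNA 3 but in no other such fit (0.0784 to 0.154). In IPO7, 200995_at fell by 0.22 (adjusted p = 0.0464), and passed in none (0.0929 to 0.126). In XPO5, whose gene value passed, 223057_s_at fell by 0.33 (adjusted p = 0.0236) and 223056_s_at by 0.25 (adjusted p = 0.0320), and the latter passed in no fit with 1 array left out (0.0609 to 0.107). The former did not pass without control 2 (0.0666), control 3 (0.0771), SDC1 siRNA 1 (0.0836) or SDC1 siRNA 2 (0.0889). The dim RCC1 probe set 215747_s_at rose by 0.26 (adjusted p = 0.0381), and passed without control 2 but in no other such fit (0.0648 to 0.128). The other probe sets of IPO5 and IPO7 lay between -0.14 and 0.06 and did not pass.

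**Figure D3:**
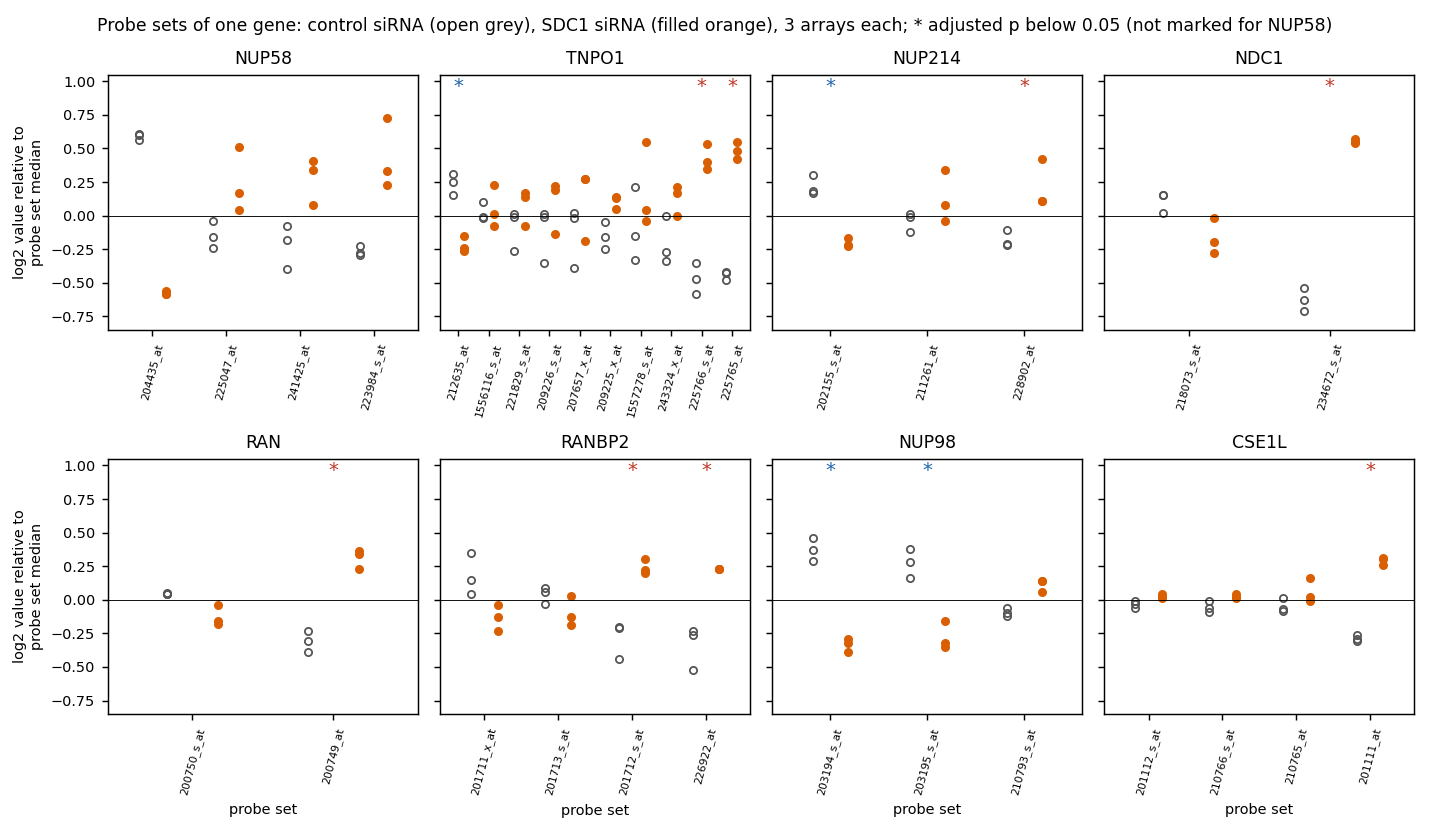
Values of every probe set of 8 genes in the 6 arrays (vertical axis, log2 relative to the probe set median; open grey control siRNA, filled orange SDC1 siRNA; stars mark an adjusted p below 0.05, red higher and blue lower, and are left off NUP58). NUP58 204435_at separates the groups in 1 direction and the other 3 NUP58 probe sets in the other, as do 212635_at and 225765_at of TNPO1.

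Outside NUP58, 46 of 201 pairs of probe sets of 1 gene differed in fold change past the threshold (22.9%), against 14.4% of all 42435 pairs in the data. They fell in 12 genes, and TNPO1 gave 21 of its 45 pairs. With TNPO1 also left out, 25 of 156 pairs passed, a share close to the 14.4% of all pairs. Among pairs with both probe sets in the brightest class, 25 of 90 passed (27.8%), against 15.6% of all such pairs. Without TNPO1 that count was 12 of 69 (17.4%). The share above background thus came mostly from TNPO1. Probe sets that passed in both directions were found in TNPO1 and NUP214, 2 of the 35 genes other than NUP58 with more than 1 probe set (5.71%). The background was 2.16% of the 10523 such genes in all and 3.18% of those in the brightest class, so the count is too small to set apart. Which stretch of a transcript each probe set reads was not analysed here.

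**Figure D4:**
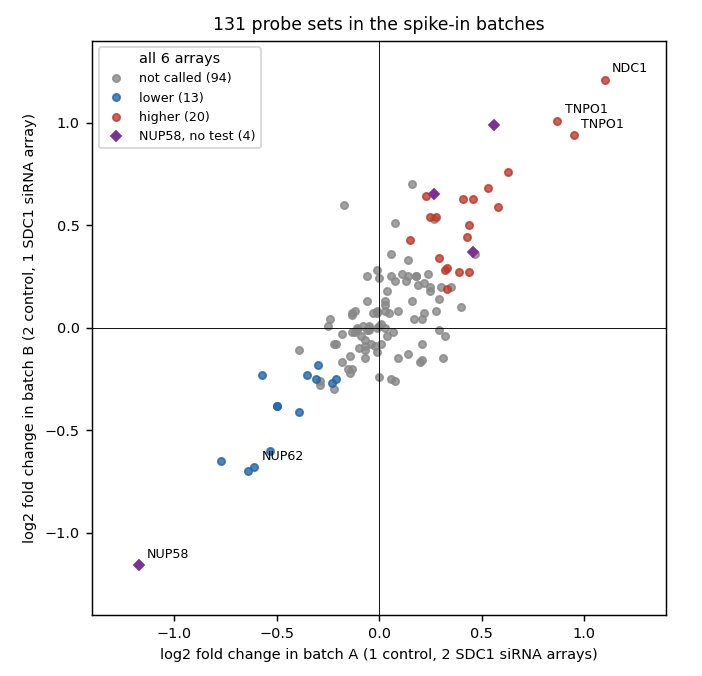
Log2 fold change of the 131 probe sets within batch A (horizontal axis, 1 control and 2 SDC1 siRNA arrays) and within batch B (vertical axis, 2 control and 1 SDC1 siRNA array), coloured by the test over all 6 arrays, with the 4 of NUP58 as purple diamonds. NDC1 234672_s_at lies farthest up, at 1.10 and 1.21; the sign within a batch is fixed beforehand for probe sets whose groups do not overlap, which holds for every coloured point.

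Within the spike-in batches the log2 fold change was 0.63 in batch A and 0.76 in batch B for NUP43, and -0.69 and -0.67 for NUP62. The groups of all 16 genes past the threshold did not overlap, which fixes the sign within a batch, so only the sizes are informative. The within-batch fits rest on 1 array in 1 group, and there 1 gene rose and 2 fell past the threshold in batch A, and 2 rose and 0 fell in batch B. At an unadjusted limma p below 0.05, 6 rose and 5 fell in batch A, and 9 rose and 4 fell in batch B, against 31.6% and 25.3% of all genes. The background at the adjusted threshold was 13.3% of all genes in batch A and 9.51% in batch B.

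The start regions of a few of the genes are shown so that their letters can be read beside the motif counts. RefSeq (GRCh38.p14) promoter windows, 250 bases before to 50 after the start, were found for 36 of the 41 genes, without NUP43. The 120 bases before the start are printed for the 4 genes with the largest falls, and for NUP58 and NDC1, whose probe sets moved apart most. Capitals mark matches, on either strand, to CCAAT (letters known to bind NF-Y), CCGGAAG (ETS factors), GGGCGG (SP factors) or CACGTG (E-box factors). They also mark TGCGCA (the core of the site of the nuclear respiratory factor NRF1) and TATAAA (a core promoter element). A match is a description of letters and not a binding site. The strand is the strand of the gene.
NUP62 (chr19:49929505-49929624, minus strand): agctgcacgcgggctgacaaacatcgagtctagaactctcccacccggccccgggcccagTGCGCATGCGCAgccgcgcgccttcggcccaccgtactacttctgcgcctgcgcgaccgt
NUP35 (chr2:183124323-183124442, plus strand): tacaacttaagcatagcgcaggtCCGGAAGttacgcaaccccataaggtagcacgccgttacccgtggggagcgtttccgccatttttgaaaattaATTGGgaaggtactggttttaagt
NUP214 (chr9:131125466-131125585, plus strand): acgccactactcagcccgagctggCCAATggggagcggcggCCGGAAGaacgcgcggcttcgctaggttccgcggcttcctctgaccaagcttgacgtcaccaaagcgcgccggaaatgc
NUP98 (chr11:3797547-3797666, minus strand): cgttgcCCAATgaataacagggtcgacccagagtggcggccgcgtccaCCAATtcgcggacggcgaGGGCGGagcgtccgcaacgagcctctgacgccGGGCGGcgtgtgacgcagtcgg
NUP58 (chr13:25301505-25301624, plus strand): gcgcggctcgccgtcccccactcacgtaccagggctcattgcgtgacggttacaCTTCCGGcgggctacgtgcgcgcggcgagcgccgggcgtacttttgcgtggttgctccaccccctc
NDC1 (chr1:53838297-53838416, minus strand): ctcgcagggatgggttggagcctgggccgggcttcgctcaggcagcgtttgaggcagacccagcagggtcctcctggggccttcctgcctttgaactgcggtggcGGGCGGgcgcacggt

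The motif letters were CCAAT in 17 of the 36 windows (47.2%, against 34.6% of all 35116 windows), CCGGAAG in 10 (27.8% against 10.3%), GGGCGG in 19 (52.8% against 45.0%), CACGTG in 5 (13.9% against 7.26%), TGCGCA in 7 (19.4% against 8.24%) and TATAAA in 1 (2.78% against 11.5%). Against the 22199 windows of protein-coding genes the shares were 34.7%, 12.8%, 56.3%, 8.34%, 9.88% and 9.47% in the same order. The median GC content was 63.3% in the 36 windows, against 58.7% in all and 62.3% in protein-coding genes, and the median count of CpG was 27 against 14 and 21. Of the windows of the 10 genes that rose, CCAAT was in 2, CCGGAAG in 2, GGGCGG in 7, CACGTG in 2, TGCGCA in 2 and TATAAA in 0. Of the 5 that fell, the counts in the same order were 3, 2, 2, 0, 2 and 0, and of the 21 that did not pass 12, 6, 10, 3, 3 and 1. These groups are too small for the motifs to be compared between them. The motifs do not contain each other.

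Other genes of the same machinery, taken from lists written for this comparison, also moved both ways, and some changed more. Of 13 further nucleoporins and related genes, SENP1 and TMEM33 among them, 12 were measured. Of these 3 rose and 1 fell, with a median of 0.10. POM121C, a membrane nucleoporin, was -0.49, -0.44 and -0.49 in the control arrays and 0.44, 0.49 and 0.55 after SDC1 siRNA, a rise of 0.97 (SE 0.059, adjusted p = 1.23e-05), although its near-identical paralog POM121 leaves the source of the signal uncertain. NUP62CL rose by 0.74 (adjusted p = 0.000585) and TMEM33 fell by 0.22 (adjusted p = 0.0309). The TMEM33 call was lost without control 1 (0.0580), control 2 (0.0815), control 3 (0.0803), SDC1 siRNA 1 (0.0551) or SDC1 siRNA 2 (0.113), and its bright probe sets ran from -0.46 to 0.11.

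Of 20 further transport receptors and Ran genes 18 were measured, with 3 higher, 5 lower and a median that rounds to 0. XPOT, the exporter of transfer RNA, was 0.92, 0.83 and 0.92 in the control arrays and -0.92, -0.94 and -0.90 in the silenced arrays and fell by 1.81 (SE 0.059, adjusted p = 1.10e-06), to 28.6% of control. KPNA5, an importin alpha, was 1.09, 0.85 and 0.96 against -0.85, -0.89 and -0.93 and fell by 1.86 (SE 0.072, adjusted p = 2.06e-06). RANBP6, a relative of importin beta, fell by 0.64 (adjusted p = 0.000212). XPOT and KPNA5 thus fell further than NUP62, the lowest of the 41 genes.

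In messenger RNA export 18 of 22 genes were measured, 4 rose and 5 fell, with a median of -0.07. ALYREF, an adaptor of export, rose by 0.83 (adjusted p = 0.000284) and THOC6, of the THO complex, by 0.79 (adjusted p = 0.00109), while the helicase DDX19B fell by 0.33 (adjusted p = 0.00957). Of 18 nuclear envelope and lamina genes 2 rose and 5 fell, with a median of -0.04. LMNB2 rose by 1.23 (adjusted p = 2.34e-05) and LMNB1 fell by 0.66 (adjusted p = 0.000274), 2 B-type lamins that moved opposite ways. TOR1AIP1, of the inner nuclear membrane, fell by 0.57 (adjusted p = 0.000533). Of 25 proliferation markers 4 rose and 3 fell, with a median of 0.09, and CCNA2 (-0.45, adjusted p = 0.00116) and BUB1 (-0.41, adjusted p = 0.00147) fell while TYMS (0.35, adjusted p = 0.00300) rose. The share past the threshold was 33.3%, 44.4%, 50.0%, 38.9% and 28.0% in these 5 lists in the order given. The background was 28.1% of all genes and 40.7% of those in the brightest class. Most measured genes of each list lay in that class (9, 14, 16, 16 and 25 in the same order). The lists were not tested against this background.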

How the data were processed

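RNA of 6 MDA-MB-231 cultures was labelled with biotin and hybridised to 6 Affymetrix arrays. The authors deposited log2 expression values for 54675 probe sets, and the submitters' processing notes name RMA with no version. No other step is given in the sources used here. Every probe set has a median within 5e-07 of 0 over the arrays, so the deposited values were centred and levels were removed. The base of 2 and the brightness class were read from the numeric steps of the values. Of the brightest class, 15.9% had a coarser step than that level allows, and such probe sets may be dimmer than their class.

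Single-gene probe sets followed the platform annotation. The mean of a gene's probe sets in its brightest class was tested, with _x_at probe sets only where there was no other, in limma 3.58.1 under R 4.3.3 (lmFit, eBayes, 2-sided) with no covariates. Benjamini-Hochberg adjustment ran over 19775 genes, 54613 probe sets without the 62 controls, or 42435 pairs of probe sets, at 0.05. The code was tested on simulated data. The genes, lists and tests were chosen with earlier results of these data known. All 41 genes are named, as are up to 3 genes past the threshold by lowest p of each other list. Arrays are given one by one for NUP58 and for those of the 41 genes past 0.5. They are also given for probe sets of the 41 genes past 0.5, other than those of NUP62 and RANBP2. Others with arrays given were chosen after their values were seen. Alternatives included other probe set rules, blocks, batches and leaving out each array. The pair differences without an array, with a block or without _x_at, and the counts without NUP58, were added after seeing the data. Precision is limited by 3 arrays a group.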

Additional observations from a re-analysis of the deposited data

How the results depend on the processing

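Over 16 alternatives, 9 genes passed in every setting other than the within-batch fits: NUP35, NUP43, NUP62, NUP98, NUP210, NDC1, CSE1L, KPNA1 and TNPO1. In NUP98, NDC1, CSE1L and TNPO1 the gene value averages bright probe sets whose fold changes differed past the threshold. A called sign turned in 3 of 656 values: NUP50 to -0.03 and NUP214 to 0.05 with all probe sets averaged, and RANBP2 to -0.14 with the class set from all 6 arrays. Values that did not pass changed sign in 26, at most 0.24 in size. Genes that rose numbered 11, but 1 within batch A, 2 within batch B and 7 to 9 with 1 array left out (7 without control 2). Genes that fell numbered 5, but 2 in batch A, 0 in batch B and 4 to 6 with 1 array left out. Counts of probe sets and pairs here include NUP58, without which they were 20 higher, 13 lower and 46 pairs. Probe sets that rose numbered 22, but 3 in batch A, 4 in batch B and 14 to 20 with 1 array left out (14 without SDC1 siRNA 1). Probe sets that fell numbered 14, but 4 in batch A, 1 in batch B and 8 to 15 with 1 array left out (8 without control 2, SDC1 siRNA 1 or SDC1 siRNA 2, and 9 without control 3). Leaving out arrays and fitting within batches leave fewer samples. Pairs past the threshold numbered 49, and 33 to 40 with 1 array left out, 41 with the batch block and 39 without _x_at probe sets. Same-numbered arrays deviated together little (correlations -0.008, 0.044 and 0.091), so the numbers were not treated as pairs. With so few arrays a group this check cannot exclude pairing. With the replicate block 11 genes rose and 5 fell, 24 probe sets rose and 12 fell, and 46 pairs passed. The block moved no gene across the threshold. No background signal was among the values, so faint probe sets cannot be told from background.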
